A study of Mus musculus with 2 samples.

Results

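CpG-rich promoters annotated with a single direction formed the largest class of open promoters in the thymus of 14-day-old mice. They were taken from DNase-seq, an assay in which DNase I cuts accessible DNA in nuclei and the cut ends are sequenced. The tissue came from female mice of the F1 cross B6CASTF1/J, of C57BL/6J and CAST/EiJ parents, aged 14 days, with no treatment or genetic change named. The labels call the samples biological replicates 1 and 2. Their animal numbers differ while the donor identifier is the same, so how far they vary as separate animals would is not known. There is no control group. Of the 97051 peaks of replicate 1, 94373 lay on chromosomes 1 to 19, and 71238 of these overlapped a peak of replicate 2. In 15648 shared peaks the midpoint was at most 500 bp from an annotated start of transcription (TSS) of a protein-coding gene, and 11899 of them were at a CpG-rich TSS. CpG-rich means an observed/expected CpG ratio of 0.6 or more within 500 bp of the TSS. Direction rests on annotated protein-coding TSSs only, since transcription was not measured. After 1356 peaks with a protein-coding TSS of the opposite strand within 1 kb were set aside, 10543 member peaks remained. They stood at 8957 TSSs of 7735 genes, which is 86.7% of the 8926 genes with a CpG-rich single-direction TSS, and made up 67.4% of the shared promoter peaks. The comparison classes were 3561 CpG-poor promoter peaks with no opposite TSS nearby, 1544 promoter peaks with an opposite TSS within 1 kb, and 55590 shared peaks farther than 500 bp from any protein-coding TSS.

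Most mammalian housekeeping genes start in CpG islands, stretches of DNA that escape CpG methylation in most tissues and so keep their CpG dinucleotides. Such promoters usually lack a TATA box, start transcription at many neighbouring positions, and carry sites for broadly expressed factors such as NRF1, the ETS family, SP1, CREB/ATF and YY1. CpG islands of developmental regulators that a tissue does not use are commonly held by Polycomb complexes. The thymus consists mainly of thymocytes, the precursors of T cells.

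Sequence elements of the strongest peaks are shown here because the footprints described further on lie over them. A footprint is a short run of bases, called by the authors, that is cut less than its open surroundings. For each motif, the site printed is the one in the highest-ranking member peak that lay in a footprint of both replicates and outside annotated exons. Each line runs 5′ to 3′ on the strand of the gene, from the GRCm38.p6 genome (mm10), with the motif in capitals and 8 bases to each side.
NRF1 site of Snrnp70, chr7:45395786-45395810: agttttggCGCATGCGCagtgcccc
ETS site of Uba6, chr5:86172883-86172906: cgccccaaCCGGAAGTcaggtgtc
CRE of Hsp90ab1, chr17:45573379-45573402: tgctaccaTGACGTCAaggtgggc
CCAAT box of Ap2a1, chr7:44929581-44929604: ctatttagCCAATCAGagagagag
BANP site of Mapk14, chr17:28691260-28691284: gtccctctTCTCGCGAGatctgccg
ZNF143 site of Ero1lb, chr13:12565797-12565821: tacagggaCTACAACTCccagaagg
TATA box of Stip1, chr19:7040043-7040064: tttaagccTATAAAaggggcga
REST site of Ptprn2, chr12:116485725-116485749: cgctgtccGGTGCTGAAgctcggcc
The NRF1 site of Snrnp70 lay 56 bp upstream of the TSS, in a footprint of 33 bp in replicate 1 and 29 bp in replicate 2. The CRE of Hsp90ab1 lay 120 bp upstream, in footprints of 30 and 26 bp. The TATA box of Stip1 lay 87 bp upstream of the nearest annotated TSS, in footprints of 47 and 45 bp. The first 7 sites came from peaks that ranked within the top 114 of the members, whereas the REST site was in the peak of Ptprn2, which ranked 7404.

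The 200 bases upstream of the TSS are printed for 4 of the strongest members, to show how such sites are spaced. Capitals mark motif matches that lay in a footprint of both replicates.
Esrra, chr19:6921809-6922008, minus strand: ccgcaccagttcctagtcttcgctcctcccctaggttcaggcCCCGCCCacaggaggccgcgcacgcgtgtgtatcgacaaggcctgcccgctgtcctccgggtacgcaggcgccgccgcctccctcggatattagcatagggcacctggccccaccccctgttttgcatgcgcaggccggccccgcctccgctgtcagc
Snrnp70, chr7:45395743-45395942, minus strand: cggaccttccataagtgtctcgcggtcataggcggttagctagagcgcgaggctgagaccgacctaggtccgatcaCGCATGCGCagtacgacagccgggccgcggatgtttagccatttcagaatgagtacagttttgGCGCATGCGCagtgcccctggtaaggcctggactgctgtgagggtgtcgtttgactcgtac
Eif1, chr11:100319685-100319884, plus strand: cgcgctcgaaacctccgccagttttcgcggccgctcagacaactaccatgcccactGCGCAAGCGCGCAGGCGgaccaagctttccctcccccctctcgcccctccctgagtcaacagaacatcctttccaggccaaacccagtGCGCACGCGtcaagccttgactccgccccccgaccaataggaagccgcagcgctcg
Hexim1, chr11:103116031-103116230, plus strand: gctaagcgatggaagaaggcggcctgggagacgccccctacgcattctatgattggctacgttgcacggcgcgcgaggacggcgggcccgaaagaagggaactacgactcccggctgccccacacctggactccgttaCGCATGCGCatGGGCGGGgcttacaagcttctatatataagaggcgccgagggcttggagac
The Snrnp70 and Eif1 stretches each held several NRF1 matches, that of Hexim1 an NRF1 match beside a GC box, and that of Esrra a GC box.

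Strength is the authors' signal for a peak. How it was scaled is not stated in the sources used, and the read depth is unknown, so levels are given per replicate. All 12 thymocyte markers checked, among them Cd3e, Cd8a and Rag1, had a peak within 500 bp of a TSS in both replicates. Of the other marker lists, 1 of 5 B cell genes, 2 of 5 myeloid genes, 2 of 6 thymic epithelial genes, 3 of 5 endothelial and mesenchymal genes, 1 of 3 erythroid genes and 0 of 4 hepatocyte genes had one. When a shared promoter peak was asked for, 11 of the 12 thymocyte markers had one, all but Rag1, and 0 of 5 B cell genes. The counts of the other lists stayed the same. Only 2 of the 12 thymocyte markers had a member peak. In tissue, more cells of a type and more open DNA per cell cannot be told apart. With 2 replicates an exact two-sided sign-flip permutation test cannot give a p below 0.5, so each difference is given with its value in both replicates, and its SD covers only the spread between them.

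CpG-rich single-direction promoter peaks were stronger than CpG-poor promoter peaks. Their median strength was 4.39 in replicate 1 and 3.50 in replicate 2, against 1.69 and 1.37 for CpG-poor promoter peaks. The difference of the medians was 1.36 ± 0.016 on the log2 scale (SD, n = 2 replicates, exact sign-flip p = 0.5), a ratio of 2.57. It was alike in both replicates, at 1.38 and 1.35. Member peaks were weaker than promoter peaks with an opposite TSS within 1 kb, whose medians were 7.44 and 4.77, a log2 difference of -0.60 ± 0.22 (SD, n = 2, exact p = 0.5). Against shared peaks away from TSSs, with medians of 0.909 and 0.892, the log2 difference was 2.12 ± 0.21 (SD, n = 2, exact p = 0.5). The middle 80% of member peaks ran from 0.557 to 17.6 in replicate 1 and from 0.616 to 8.54 in replicate 2. Members thus spanned a wide range and overlapped every other class. They held 35.9% of the summed peak strength of chromosomes 1 to 19 in 11.2% of the peaks in replicate 1, and 28.5% in 9.41% of the peaks in replicate 2.

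**Figure D1:**
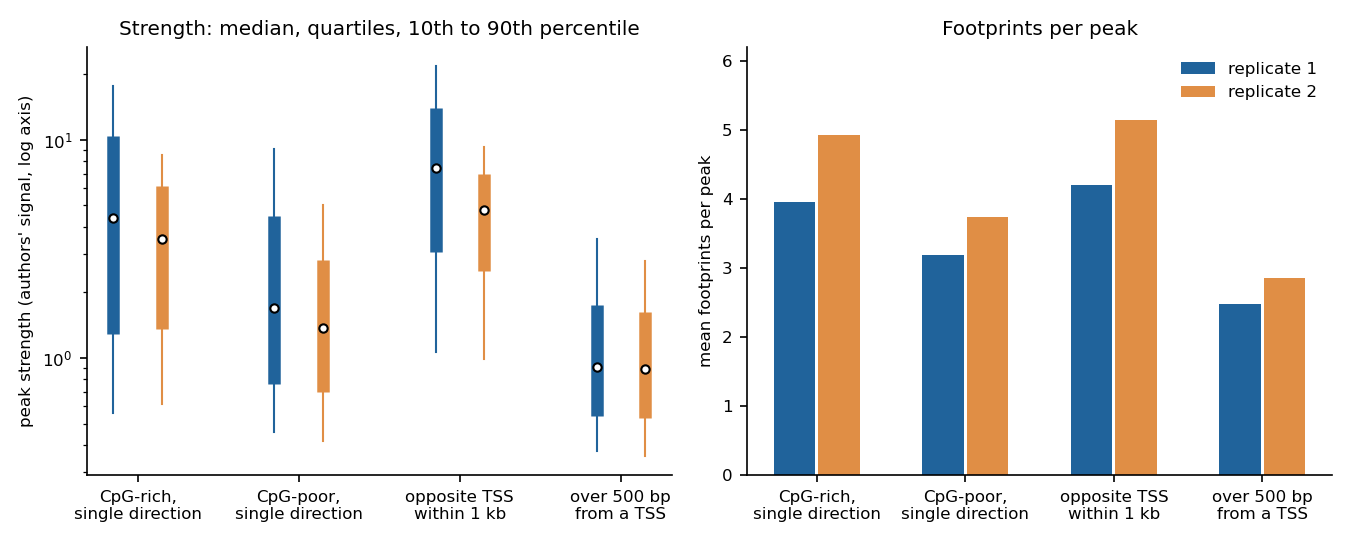
Strength (left, log axis; circle for the median, thick bar for the quartiles, thin line for the 10th to 90th percentile) and mean number of footprints per peak (right) of 4 classes of shared peaks in both replicates. CpG-rich single-direction promoter peaks, with medians of 4.39 and 3.50, lie above the CpG-poor ones and below those with an opposite TSS in both replicates.

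The strongest members stood at genes of varied function. Ordered by the mean of the ranks in both replicates, the highest was the peak of Rab1a, a small GTPase of transport from the endoplasmic reticulum to the Golgi, with strengths of 37.5 and 15.0. Papss1, which makes the sulfate donor of the cell, had 36.2 and 15.3. Esrra, an orphan nuclear receptor that controls genes of energy metabolism, had 44.6 and 14.1. Snrnp70, a protein of the U1 splicing particle, had 38.1 and 14.5, and Eif1, which helps the ribosome choose the start codon, had 35.8 and 15.1. These peaks stood among the top 52 of 10543 in both replicates. Dnpep, an aminopeptidase, had the highest strength of replicate 1, at 51.2, with 13.9 in replicate 2. Myo10, a myosin of filopodia, had the highest of replicate 2, at 20.4, with 33.0 in replicate 1. Fzr1, an activator of the anaphase-promoting complex, had 34.5 and 18.01. Hexim1, an inhibitor of the elongation factor P-TEFb, had 34.8 and 15.2. Hjurp, the chaperone that loads the centromeric histone CENP-A, had 33.7 and 18.7. Parp6, of the ADP-ribosyltransferase family, and Bcl2l1, the gene of the anti-apoptotic protein BCL-XL, completed the 12, with 37.6 and 14.1 for Parp6 and 36.8 and 14.1 for Bcl2l1. The Bcl2l1 peak had its midpoint 377 bp downstream of the nearest TSS, whereas the other 11 midpoints lay upstream of theirs.

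Most of the 6 weakest members by mean rank held no footprint. The peak of 5730507C01Rik had strengths of 0.145 and 0.109, and that of Npbwr1, a neuropeptide receptor, had 0.182 and 0.161. March11, a ubiquitin ligase of the membrane, had 0.187 and 0.1497. Zfpm2, a cofactor of GATA factors in the heart, had 0.213 and 0.121. Rasef had 0.208 and 0.1497, and Gm3739 had 0.140 and 0.184. Among these 6, the Gm3739 and Npbwr1 peaks held a footprint in replicate 1, and Gm3739 also held one in replicate 2. Of the 39 named peaks whose 32-base words were counted in the genome, 37 consisted mostly of words found once, and Gm3739 was among the exceptions, with a median of 2 copies and a highest count of 32.

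The order of the members was much the same in both replicates. Over the 8586 members paired with a single replicate 2 peak that overlapped no other (81.4%), the Spearman correlation of strength was 0.922 and the Pearson correlation of log2 strength was 0.944. This is a description across peaks, which share library and depth. The median log2 ratio of replicate 1 to replicate 2 was 0.53, and the ratio moved with strength. With the pairs split by strength into 10 equal groups, the ratio was 0.64 above that median in the strongest group, and in the weakest it stood at -0.47 relative to it. A single factor therefore did not relate the 2 sets of strengths. The strongest group had median strengths of 22.8 and 9.98, and the weakest 0.436 and 0.438. Peaks with the highest ratios included those of Mtmr4 (46.1 and 8.67), Mex3b (20.7 and 3.98), Spag7 (23.4 and 4.503), E2f3 (31.7 and 6.13) and Map9 (18.8 and 3.66). Mtmr4 encodes a phosphoinositide phosphatase, Mex3b an RNA-binding protein and E2f3 a cell-cycle transcription factor. The lowest ratios were at Fgfr1op (0.592 and 2.79), Myo18a (1.14 and 3.61), Rapgef1 (2.79 and 8.83), Myrf (0.7999 and 2.51), Itga9 (0.815 and 2.56) and Dagla (0.987 and 3.05). Rapgef1 encodes an exchange factor for Rap1, Itga9 an integrin subunit and Dagla a diacylglycerol lipase. The Fgfr1op peak was the other exception in the word count, with a median of 2 genome copies, and the part of such copies in its ratio was not tested.

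Member peaks were slightly wider than CpG-poor promoter peaks and held more footprints. Their median width was 220 and 260 bp, against 200 and 240 bp for CpG-poor promoter peaks, a difference of 20 bp in both replicates, or 1 step of the grid on which most ends lie. Peaks over 400 bp made up 7.23% and 18.1% of members, against 4.02% and 16.6% of CpG-poor promoter peaks. Members held 3.96 and 4.93 footprints per peak, against 3.19 and 3.74 in CpG-poor promoter peaks, a difference of 0.976 ± 0.300 (SD, n = 2, exact p = 0.5). Per 100 bp of peak they held 1.68 and 1.73, against 1.48 and 1.36, a difference of 0.289 ± 0.119 (SD, n = 2, exact p = 0.5). Strength moved with both numbers. Below the lower quartile of strength of all promoter peaks, members held 0.798 and 0.689 footprints per 100 bp, against 0.931 and 0.832 in CpG-poor promoter peaks. Between the lower quartile and the median members held 1.52 and 1.48, against 1.61 and 1.52. Between the median and the upper quartile they held 2.16 and 2.19, against 2.05 and 2.04, and above the upper quartile 2.09 and 2.27, against 2.02 and 2.18. At like strength members thus had the lower density in both weaker groups and the higher density in both stronger groups. Averaged over the 4 groups these opposite differences came to 0.00097 ± 0.016 per 100 bp (SD, n = 2), and the difference per peak was 0.444 ± 0.125.

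Footprints levelled off with strength while widths did not follow it. Over the 7 strongest of the 10 groups the mean lay between 4.46 and 4.90 footprints in replicate 1 and between 5.36 and 5.92 in replicate 2, and in the weakest group it was 1.62 and 1.58. The Spearman correlation between strength and width was -0.13 in replicate 1 and -0.27 in replicate 2. The widest member was at Tle3, a Groucho-family corepressor, with 1840 and 1680 bp at strengths of 1.68 and 1.61. Inside it lay another Tle3 member, of 800 bp in replicate 1 and paired with the same replicate 2 peak. Each was counted as a member. Kctd12, which binds GABA-B receptors, had a peak of 1120 and 1220 bp with 13 and 23 footprints at strengths of 1.101 and 1.01. Cobll1 had 1220 and 1100 bp, and the Rfx7 peak, at a gene of the RFX transcription factor family, had 420 bp in replicate 1 and 1720 bp in replicate 2. The most footprints after Kctd12 were in Rock2, a kinase that acts on the actin cytoskeleton, with 17 and 16. Tmem131l had 8 and 25, Slc35e2 had 15 and 17, and Fmnl1, a formin, had 15 and 17. The highest rank by strength among these wide or footprint-rich peaks was 3276, that of Slc35e2.

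Footprints in members recurred more often than those in CpG-poor promoters. A footprint of the other replicate overlapped 70.5% of member footprints in replicate 1 and 70.0% in replicate 2, against 57.5% and 58.1% of those in CpG-poor promoter peaks. Sharing was higher in stronger peaks of both classes. Below the lower quartile of strength it was 34.6% and 31.4% in members, against 35.0% and 36.4% in CpG-poor promoters. Above the upper quartile it was 83.8% and 86.2% in members, against 78.5% and 85.7%. At like strength the order of the classes was thus not the same throughout. Footprints of 20 bp or wider made up 33.2% and 22.5% of member footprints, against 23.2% and 14.2% in CpG-poor promoters. They made up 39.1% and 25.6% in promoter peaks with an opposite TSS, and 18.6% and 16.3% in shared peaks away from TSSs. These shares were not compared at like strength.

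Member peaks stood just upstream of the TSS. The median midpoint was 24 bp upstream, and 59.9% lay between 150 bp upstream and 50 bp downstream. Only midpoints within 500 bp of a TSS were kept, which sets part of this closeness. CpG-poor promoter peaks had a median midpoint 14 bp upstream, with 58.6% in that range. Those with an opposite TSS also had 14 bp, with 72.9%. By annotation, 52.5% of member midpoints were upstream of the TSS and outside exons, 29.7% in exons outside coding sequence, 6.06% in coding exons, and 11.7% in introns or elsewhere. Strength was tied to this position. Peaks centred 101 to 150 bp upstream had median strengths of 8.90 and 4.84, and those centred 51 to 100 bp upstream had 8.23 and 5.11. Those centred 100 to 149 bp downstream had 1.36 and 1.40, and those 450 to 500 bp downstream 1.09 and 1.15. Some promoters had a second peak, mostly downstream of the first. At 1476 TSSs with several member peaks, the strongest had its midpoint a median of 36 bp upstream and a strength of 3.44 and 2.62. The next had its midpoint a median of 186 bp downstream and a strength of 1.25 and 1.34. The midpoints of these peaks lay a median of 390 bp apart, and peaks that overlapped each other were not set aside.

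**Figure D2:**
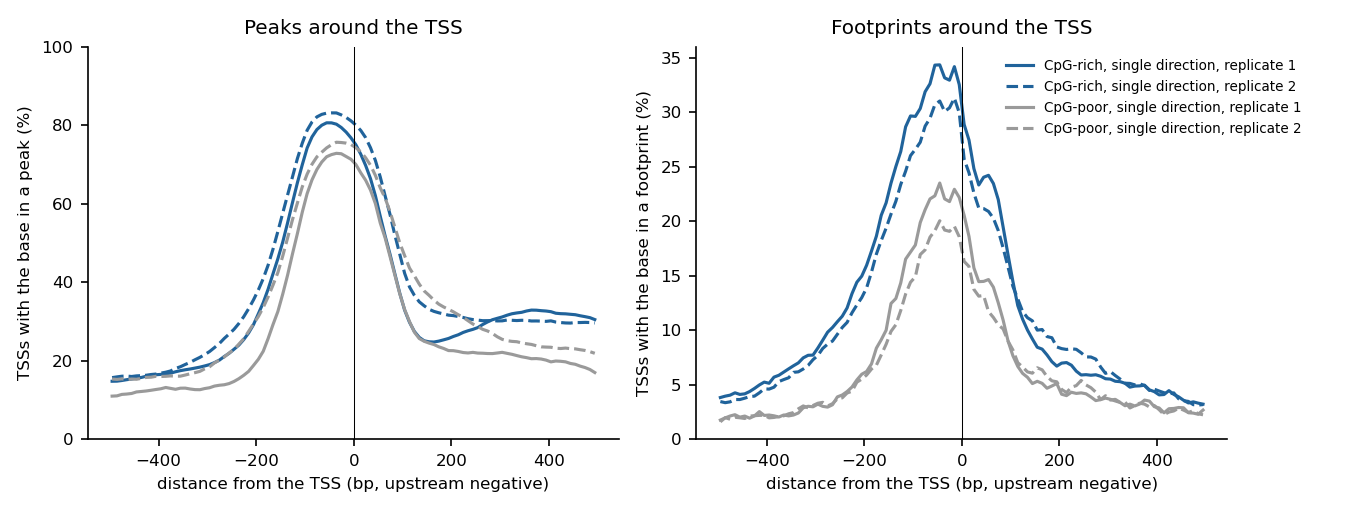
Share of TSSs whose base at a given distance lies in a peak (left) or in a footprint (right), in bins of 10 bp, for CpG-rich and CpG-poor single-direction promoters with a shared peak. At members, 80.6% and 83.2% of TSSs had a peak at 50 to 41 bp upstream, and 34.4% and 31.1% a footprint there.

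Open chromatin reached farther downstream than upstream of the members. In the authors' track of false discovery rates of the cut rate, in which only bases under 0.05 are listed, a median of 667 and 827 bases downstream of a member TSS were listed within 1000 bp, against 466 and 631 upstream. CpG-poor promoters had the same order at lower levels, with 371 and 524 bases downstream and 274 and 396 upstream. At promoters with an opposite TSS within 1 kb the order was turned, with 632 and 796 bases downstream and 715 and 879 upstream. In both directions together, member TSSs had a median of 1164 and 1449 listed bases, against 697 and 965 at CpG-poor promoters. The listed region was far wider than the peaks, whose median width was 220 and 260 bp. In the 20 bp nearest to 600 bp upstream, 35.3% and 53.6% of bases at member TSSs were listed, and in those nearest to 600 bp downstream 56.9% and 74.2%.

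The share of promoters with a peak was higher at higher CpG content, and median strength was highest at ratios between 0.7 and 1 in replicate 1. Of 15464 CpG-rich single-direction TSSs, 13707 had a peak midpoint within 500 bp in both replicates, or 88.6%. Under a ratio of 0.2 the share was 5.06% (95% Wilson interval 4.61 to 5.55%, 422 of 8340 TSSs). From 0.4 to 0.5 it was 46.7%, from 0.6 to 0.65 it was 77.8%, and from 0.9 to 1 it was 94.4% (interval 93.4 to 95.3%, 2180 of 2309). These intervals cover counting error only, and TSSs of 1 gene often share a peak. Within the members, the Spearman correlation between the ratio and strength was only 0.048 in replicate 1 and 0.082 in replicate 2. Median strength was 4.05 and 2.88 at 0.65 to 0.7, 4.69 and 3.403 at 0.7 to 0.8, 4.57 and 3.45 at 0.8 to 0.9, and 4.68 and 3.65 at 0.9 to 1. At 1 to 1.1 it was lower in both replicates, at 3.42 and 2.90 (n = 494), and above that it was 3.97 and 4.01 in only 59 peaks. Median strengths just inside and just outside lay close together at the thresholds of distance to the TSS and to an opposite TSS. At the CpG threshold they were higher inside in both replicates. Members with a ratio of 0.6 to 0.65 had median strengths of 3.42 and 2.63 (n = 977), and peaks just outside it, from 0.55 to 0.6, had 2.79 and 2.13 (n = 788). Members with a midpoint 400 to 500 bp from the TSS had 1.20 and 1.21 (n = 894), and peaks just beyond 0.5 kb and up to 0.6 kb had 1.19 and 1.12 (n = 795). Members whose nearest opposite TSS was 1 to 1.5 kb away had 5.64 and 3.64 (n = 89), and CpG-rich peaks with one at 0.5 to 1 kb had 5.82 and 3.78 (n = 221). With an opposite TSS within 500 bp, the medians were 8.41 and 5.11 (n = 1135). GC content moved with the class as well, with a median of 62.7% around member TSSs and 54.1% around those of CpG-poor promoter peaks, and its part in these differences was not tested.

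**Figure D3:**
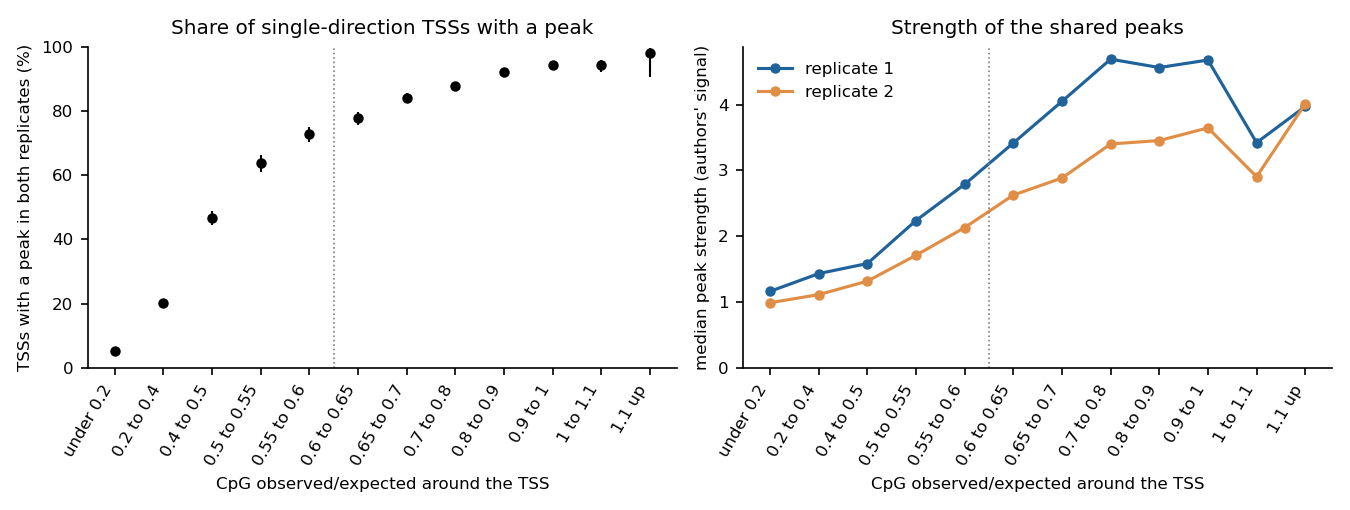
Share of single-direction TSSs with a peak in both replicates (left, bars for 95% Wilson intervals) and median strength of the shared promoter peaks (right), by CpG observed/expected ratio. The share climbs from 5.06% under 0.2 to 94.4% at 0.9 to 1, and the dotted line marks the threshold of 0.6.

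Most motifs of broadly expressed factors were held by a larger share of the members than of CpG-rich promoters without a peak. Exact matches on both strands were counted from 250 bp upstream to 50 bp downstream of the TSS, at 8957 member TSSs, all 39516 protein-coding TSSs, and 983 CpG-rich single-direction TSSs with no peak in either replicate. Overlapping matches were each counted, and some motifs can share letters, as the GC box does with the E2F and CTCF motifs. The palindromes CACGTG and TGACGTCA were counted once per site, while the BANP motif can match both strands at neighbouring positions and was counted at each. The NRF1 motif GCGCANGCG was held by 15.9% of members, against 4.98% of CpG-rich promoters without a peak and 8.65% of all TSSs. The ETS motif CCGGAAGT was held by 8.08%, against 1.12% and 5.00%. The GC box GGGCGGG, the site of SP1, was held by 57.4%, against 44.6% and 33.8%. The BANP motif CTCGCGAGA was held by 1.496%, against 0.203% and 0.888%, and the YY1 motif AANATGGCG by 5.78%, against 2.85% and 3.396%. The TATA box letters TATAAA went the other way, with 5.65% of members, against 7.83% and 11.8%, as did the GATA motif AGATAA with 4.39%, against 7.02% and 9.60%. At 1461 TSSs of open promoters with an opposite TSS within 1 kb, some shares were higher than in members. They were 18.3% for NRF1, 11.8% for ETS, 7.67% for YY1 and 2.12% for BANP. The share of the GC box was lower there, at 48.1%, as were those of TATAAA (4.52%) and AGATAA (4.04%). Mean GC content of the window was 64.5% in members, 62.2% in CpG-rich promoters without a peak and 56.4% over all TSSs, so the comparison with all TSSs also sets GC-rich beside GC-poorer sequence. Among the members, 16.3% held none of the 16 motifs.

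For each of the 16 motifs, member peaks at TSSs with it had a higher median strength than those without, in both replicates. The size of the difference varied widely. With a BANP motif, held by 134 TSSs, the median strength was 12.7 and 6.67, against 5.45 and 3.81 without (log2 difference 1.01 ± 0.29, SD, n = 2 replicates). With the CCAAT box CCAATNAG, the site of NF-Y, it was 11.3 and 5.42, against 5.11 and 3.69 (0.85 ± 0.42). With the NRF1 motif it was 8.18 and 5.58, against 4.95 and 3.55 (0.69 ± 0.050). For the GC box there was almost no difference, with 5.53 and 3.96 against 5.50 and 3.77 (0.04 ± 0.046). Strength also climbed with the number of kinds of motif held. TSSs with none of them had median strengths of 3.28 and 2.53 (n = 1464), those with 2 kinds had 7.03 and 4.57 (n = 2519), and those with 4 had 9.92 and 6.26 (n = 199).

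Several motifs were densest at narrow positions relative to the TSS. NRF1, ETS and CRE matches were densest in the 20 bp just upstream of it, GC and CCAAT boxes at 60 to 41 bp upstream, and TATA boxes at 40 to 21 bp upstream. The YY1 motif was densest downstream, at 20 to 39 bp, with 160 of its 878 matches, and 79.4% of those 160 ran in the direction of the gene. Of the TATA matches in their densest bin, 78.3% ran with the gene, against 55.7% of all TATA matches. For the NRF1 motif the share in its densest bin was 52.2%, near an even split.

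Several motifs of broadly expressed factors lay in footprints far more often than the bases of the peaks did. Footprints covered 26.9% and 23.0% of the bases of member peaks. The CRE motif TGACGTCA, the site of CREB and ATF factors, was in a footprint at 92.4% of 353 sites in replicate 1 and 86.2% of 363 sites in replicate 2. The NRF1 motif was in one at 82.8% of 1991 and 81.0% of 2120 sites. The BANP motif was covered at 84.4% and 72.8% of sites, and the RFX motif GTTGCCATG at 78.0% and 64.6% of only 59 and 65 sites. The CTCF motif CAGNGGGCG was covered at 67.7% and 64.1%, the ETS motif at 65.0% and 56.0%, and the GC box at 61.2% and 53.4%. By contrast the RUNX motif TGTGGTT was covered at 13.0% and 12.8%, and the GATA motif at 11.9% and 13.3%, below the share of all bases. RUNX1 and GATA3 are transcription factors of T cell development. High coverage of the other motifs was not particular to members. In CpG-poor promoter peaks NRF1 was covered at 78.0% and 80.4%, and CTCF at 67.5% and 63.2%. ETS was covered less often there than in members, at 52.7% and 38.5%. In promoter peaks with an opposite TSS within 1 kb, NRF1 was covered at 85.9% and 85.7%, and the GC box at 70.9% and 64.0%. In shared peaks away from TSSs, the CTCF motif was covered more often than in all members together, at 78.7% and 79.1%, and NRF1 less often, at 68.6% and 63.6%. The RUNX motif was covered there at 25.8% and 16.3%, above the 16.9% and 14.2% of all bases of those peaks. The GATA motif, at 12.3% and 10.1%, was below that share there as well. Those peaks were weaker, with median strengths of 0.909 and 0.892. In the weakest of 3 equal groups of members, with medians of 0.836 and 0.913, CTCF was covered at 37.5% and 33.0%. NRF1 was covered at 48.4% and 48.2% in that group, so beside it both motifs were covered more often away from TSSs. DNase I has sequence preferences of its own, and their part in these shares was not tested.

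Coverage of motifs was lower in weaker peaks, with the REST motif as the exception. In the strongest of 3 equal groups of members, footprints covered 43.7% and 39.3% of all bases, against 9.45% and 8.96% in the weakest. NRF1 sites were covered at 91.1% and 89.6% in the strongest group, against 48.4% and 48.2% in the weakest. TATA boxes had 64.5% and 59.4%, against 2.78% and 7.96%. GC boxes had 83.3% and 74.4%, against 24.4% and 21.6%. The REST motif TTCAGCACC, the core of the site of a repressor of neuronal genes, had 11.1% and 33.3% of 9 and 9 sites covered in the strongest group, against 46.4% and 40.6% of 28 and 32 sites in the weakest. With so few sites this order was not tested.

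**Figure D4:**
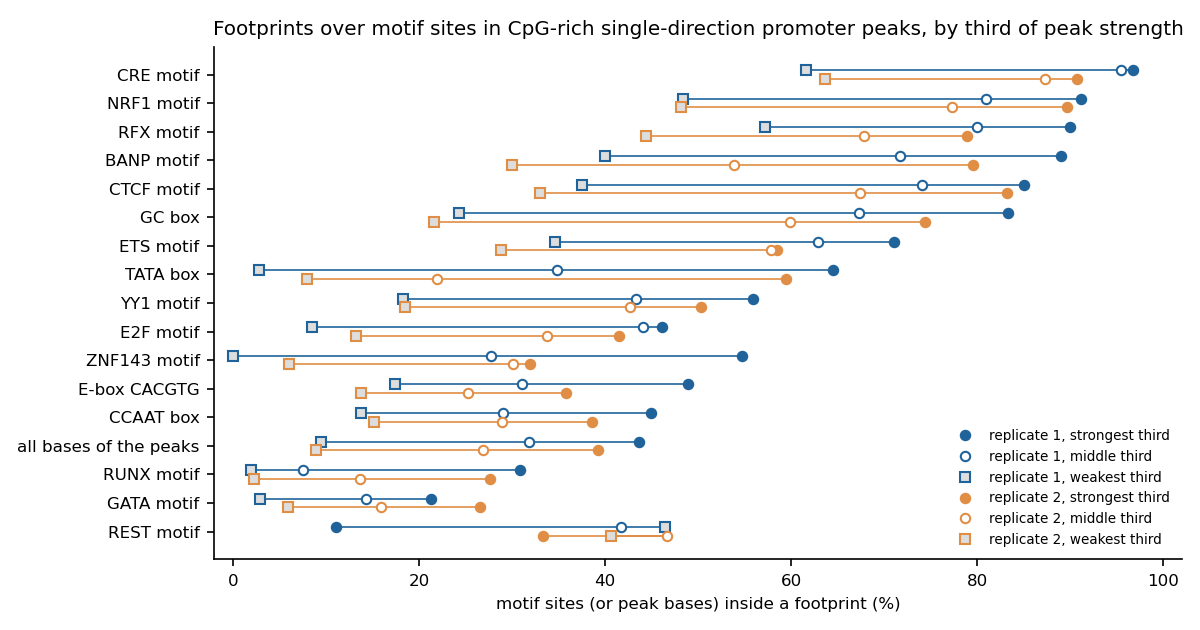
Share of motif sites, and of all peak bases, that lay inside a footprint in the strongest, middle and weakest of 3 equal groups of CpG-rich single-direction promoter peaks, by replicate. CRE and NRF1 sites stand at the top in both replicates. In the strongest group RUNX and GATA sites stand below all bases, and in replicate 2 so do CCAAT, ZNF143 and CACGTG sites. REST sites stand below all bases there too, and are the exception to the fall with strength.

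In the lists of basic cell functions, almost all genes that have a CpG-rich single-direction TSS had a member peak, as most such genes did. Over all 8926 genes with a CpG-rich single-direction TSS, 86.7% had a member peak, and the strongest such peak of a gene had median strengths of 6.64 and 4.36. All 43 ribosomal protein genes with such a TSS had one, as had all 19 splicing factor, 20 transcription machinery, 21 replication and mitosis, 18 respiratory chain, 24 proteasome and 23 immediate early genes. The chromatin modifier list had 26 of 27. These shares are near the background and are not a result about the lists. Listed genes without such a TSS are not counted here: of the 32 respiratory chain genes, for example, 18 have one. Splicing factor genes had median strengths of 14.8 and 7.998, ribosomal protein genes 12.5 and 6.26, transcription machinery genes 12.1 and 6.61, and replication genes 11.4 and 6.09. All 4 medians lay above that of all genes in both replicates.

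The strongest peaks of each list stood at genes of different parts of each machinery. Among splicing factors they were at Snrnp70, described above, Hnrnpc (35.8 and 11.99), Srsf3 (22.4 and 10.7) and Hnrnpl (19.7 and 12.4), which bind pre-mRNA. Among ribosomal proteins they were at Rplp0 (22.3 and 13.8), Rpl3 (19.2 and 10.8), Rpl37 (20.4 and 9.75) and Rps16 (17.1 and 10.5). These ribosomal genes encode proteins of both subunits. In the transcription machinery they were at Ccnt1, a subunit of the elongation factor P-TEFb (28.2 and 8.99), the RNA polymerase II subunit gene Polr2d (18.9 and 10.3), Taf5 of TFIID (19.5 and 8.82) and the elongation factor gene Supt5 (23.9 and 7.59). Replication genes were led by Pold1, the catalytic subunit of DNA polymerase delta (24.7 and 15.2), the helicase component genes Mcm5 (19.2 and 11.2) and Gins2 (24.5 and 9.03), and cyclin E1, Ccne1 (13.02 and 13.3). Respiratory chain genes were led by Cycs, cytochrome c (21.2 and 10.6), Atp5b (16.5 and 9.69) and Uqcrfs1 (15.6 and 8.63). Proteasome genes were led by Psmb3 (25.5 and 9.66), Psmc4 (18.1 and 9.77), Psmd4 (22.3 and 7.93) and Psmb2 (11.7 and 10.8). Psmb genes encode subunits of the catalytic core, and Psmc and Psmd genes those of the regulatory cap. Chromatin modifiers were led by Smarca4, the ATPase of the BAF remodeller (27.7 and 14.5), Smc3 of cohesin (20.1 and 11.7), the remodeller Chd8 (29.1 and 9.01) and the histone deacetylase Hdac1 (20.5 and 6.81). The modifier gene without a peak in either replicate was Tet1, a methylcytosine dioxygenase, whereas its relatives Tet2 (4.21 and 2.34) and Tet3 (2.80 and 2.99) had one. Immediate early genes, which respond quickly to stimulation, were led by Btg1 (23.8 and 13.3), Klf6 (28.8 and 10.4), Jund (22.4 and 11.3) and Jun (19.9 and 9.34), while Atf3 (0.478 and 0.455) had the weakest peak of that list. Tet2, Tet3 and Atf3 are named after their values were seen, as are Bcl11b and Tox in the T cell list.

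Listed thymocyte and T cell genes had member peaks with a median strength below that of all genes. Of the 40 genes on that list, 16 had a CpG-rich single-direction TSS, and all 16 had a member peak, with medians of 4.72 and 2.89, against 6.64 and 4.36 for all genes. Ets1, a factor of lymphocyte development, had 14.9 and 9.54, and Tcf3, the gene of the E proteins E12 and E47, had 13.0 and 6.51. The chromatin organizer Satb1 had 15.2 and 5.96, and Id3, an inhibitor of E proteins, had 8.87 and 5.36. At the other end, Bcl11b, which commits cells to the T lineage, had 1.18 and 1.35, its peak lying 301 bp downstream of the TSS, and Tox had 1.11 and 1.59. Genes of this list thus lay on both sides of the median of all genes. Among lists of other cell types, Irf8 (5.13 and 4.08) and Cebpa (1.69 and 2.02) of the myeloid list, Epcam (0.514 and 0.714) of the epithelial list and Kdr (0.623 and 0.541) of the endothelial list had member peaks. Pax5, which defines B cells, and Tal1 of the erythroid list had CpG-rich promoters with no peak in either replicate.

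Few of the listed developmental regulators had a member peak. Of 35 such genes with a CpG-rich single-direction TSS, 8 had a member peak (22.9%, against 86.7% of all such genes), and 23 had no peak at any TSS in either replicate. Among the 23 were Dlx5, Foxa1, Foxa2, Foxd3, Gata4, Hoxa9, Hoxc8, Hoxd13, Hoxd9, Lhx5, Lhx8, Neurog1, Nkx2-1, Olig2, Otx2, Pax2, Pax3, Pax7, Six3, Sox2, Sox9 and Tbx20, transcription factors that pattern other tissues. The 8 open ones had median strengths of 0.647 and 0.582. They were led by Lhx2 (2.84 and 1.38), Hoxa13 (1.02 and 1.34), Dlx2 (1.01 and 0.864) and Pax6 (0.795 and 0.668). Each lay below the median of all genes in both replicates. Of 15 neuronal genes with such a TSS, 8 had a member peak, with medians of 1.57 and 1.23. Syn2, a synaptic vesicle protein gene, had 1.77 and 2.34, the glutamate receptor gene Grin1 had 1.69 and 1.83, Mapt had 1.72 and 1.66, and the potassium channel gene Kcnc1 had 2.02 and 1.36. Gad1 and Nefm were among those with no peak in either replicate.

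**Figure D5:**
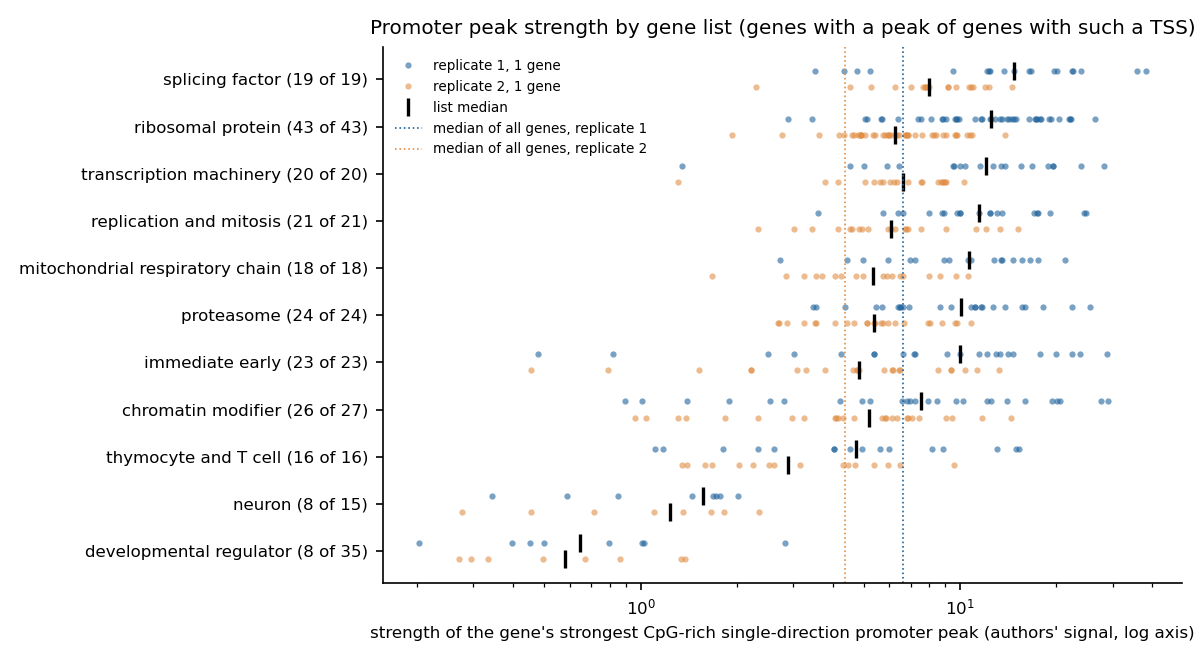
Strength (log axis) of the strongest CpG-rich single-direction promoter peak of each gene in 11 gene lists, with list medians (black bars) and the medians of all genes (dotted lines, 6.64 and 4.36). Splicing factor genes lie mostly above those lines and all 8 open developmental regulators below them.

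In all, 582 of the 8926 genes with a CpG-rich single-direction TSS had no peak at any TSS in either replicate. Their highest CpG ratio had a median of 0.714, against 0.799 for the 7735 genes with a member peak. Their median length was 21187 bp, against 29582 bp for genes with a member peak. At most TSSs without a peak no base was listed as significantly cut. The track and the peaks come from the same samples, so choosing TSSs without a peak already favours few listed bases. Of the 983 CpG-rich single-direction TSSs without a peak, 11.3% in replicate 1 and 16.7% in replicate 2 had at least 1 base under a false discovery rate of 0.05 within 500 bp, and the median number of listed bases within 1000 bp was 0 in both replicates.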

How the data were processed

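DNase-seq of 2 thymus samples was analysed from peaks, false discovery rates and footprints. The authors mapped reads to mm10 and made each file from 1 sample, not from a pool, per the labels' listing of deposited files. Aligner, callers and how CAST/EiJ alleles were mapped are not stated in the sources used. Peak strength is the authors' signal in column 7 of the deposited peak lists; in each replicate all values were whole multiples of a step, 0.00519 in replicate 1 and 0.00576 in replicate 2 (tolerance 0.05 steps). The deposited track holds a false discovery rate (a p-value adjusted by the authors) per run of bases, listed only under 0.05. Footprints were used as intervals, since the deposited footprint score is constant.

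Of the 2 deposited peak lists per replicate the longer was used. TSSs came from protein-coding transcripts of the GENCODE M21 basic set. A footprint counted in a peak when at least 50% of it lay there. Shared means an overlap of 1 bp or more. A motif was covered when its middle base lay in a footprint. Named genes were the 12 highest and 6 lowest members by mean rank, the 6 highest and 6 lowest replicate ratios, the 5 widest, the 5 with most footprints, up to 4 per gene list by rank, and listed genes without a peak. A few genes that this rule names are not reported here. Members, lists and motifs were chosen with earlier results of these data known. Alternatives changed the peak list, overlaps, distances, CpG threshold, TSS set and replicates. Scripts were tested on simulated data and used Python 3.11.15, NumPy 2.4.6 and SciPy 1.17.1.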

Additional observations from a re-analysis of the deposited data

How the results depend on the processing

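In none of the alternatives run did a mean difference from CpG-poor promoters change its sign, and 38 of 70 alternative values stayed within the spread between replicates, within 1.5 times for the count of members, within the counting interval of the open share, or within 0.01 for the correlation. With the shorter peak list the log2 strength difference was 1.11, the width difference 10 bp, the correlation between replicates 0.908, footprint sharing 72.0% and the open share 83.8%. With a reciprocal overlap of at least 50% of peaks the width difference was 10 bp, sharing 73.4% and the open share 77.0%. With replicate 2 peaks as members the strength difference was 1.39. With midpoints within 250 bp the strength difference was 1.46, the width difference 10 bp, the correlation 0.894, sharing 72.4% and the open share 77.9%. With a CpG ratio of at least 0.75 there were 6768 members, a strength difference of 1.41, sharing of 70.7% and an open share of 92.2%. With outermost TSSs only, the strength difference was 1.34, the width difference 10 bp, the correlation 0.911, sharing 71.4% and the open share 88.0%. Each of these width differences of 10 bp is the mean of 20 bp in replicate 1 and 0 bp in replicate 2. Averaged over the 4 groups cut at the quartiles of strength, the footprint difference was 0.444 per peak and 0.00097 per 100 bp, with -0.010 per 100 bp in replicate 1. Sharing by a reciprocal overlap of at least 50% of footprints was 52.3%. The causes were not tested. Leaving out 1 replicate, with no overlap asked, gave 11535 and 12150 members, strength differences of 1.48 to 1.52, width differences of 18 to 20 bp, footprint differences of 0.797 to 1.32 per peak and 0.205 to 0.389 per 100 bp, and open shares of 90.2 to 92.1%; correlation and sharing need both replicates. No paired analysis was possible because the design holds 1 group with no contrast between groups. Read depth is unknown, so a weak or absent peak cannot be told apart from shallow coverage.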
